A study of Drosophila melanogaster with 103 samples.

Results

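The dpr, DIP, beat and side genes of Drosophila melanogaster encode cell surface proteins of the immunoglobulin superfamily. They were taken from the dm6 gene table as the protein-coding genes whose symbol is dpr followed by a number, begins with DIP- or beat-, or is side or begins with side-. This gave 54 genes of 13946, of which 21 are dpr, 11 DIP, 14 beat and 8 side genes. No measured value entered this rule, though earlier results of these data were known when the members were chosen. The genes lie on 2L (16 genes), 2R (7), 3L (4), 3R (21), 4 (1) and X (5).

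Dpr proteins on one neuron bind DIP proteins on another, and Beat proteins bind Side proteins in the same receptor and ligand manner. In the fly nervous system such pairs take part in axon guidance, in the choice of synaptic partners and in the survival of neurons. Beat and Side were first known from motor axons, which use Beat to leave a nerve and to follow Side on their path to muscle. The Polycomb group (PcG) proteins hold developmental genes silent: PRC2, with E(z) and Pcl, sets H3K27me3, and PRC1, with Pc, Ph and Psc, binds that mark and sets H2AK118ub1. Pho, with its partner Sfmbt, and Spps bind DNA elements from which the complexes act, and Scm links both complexes. H3K4me3 and H3K27ac mark active promoters, H3K27ac and H3K4me2 also mark enhancers, and H3K36me3 lies over transcribed gene bodies.

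Chromatin immunoprecipitation with sequencing was done in 3 untreated lines. D17 (ML-DmD17-c3, known as a clone from the haltere imaginal disc) gave 41 libraries and 20 peak lists, Kc167 (an embryonic line with blood cell features) 21 libraries and 10 lists, and S2 (S2-DRSC, another embryonic line with blood cell features) 41 libraries and 20 lists. No genotype change or agent is given for any line, and a line is a single immortal culture, so it stands for no fly tissue. Each antibody had 2 replicates fixed from different flasks, and each line had 1 input.

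The lists hold 227654 peaks, 1 list per antibody and line, with no value per replicate. No spread between replicates could therefore be set against a difference between lines, the depth is unknown, and every count below is a description with no test. Of 9 hemocyte markers, 6 in D17, 4 in Kc167 and 6 in S2 had H3K27ac at a gene end. Of 8 imaginal disc markers, 7 in D17, 7 in Kc167 and 8 in S2 lay under H3K27me3. In D17 ap was the uncovered one, and wg, which was covered, had H3K27ac at an end in D17 only. Of 7 neuron markers, 1 in D17, 3 in Kc167 and 3 in S2 had H3K27ac at an end. Of the hemocyte markers 0, 1 and 1 lay under H3K27me3 in D17, Kc167 and S2, and of the neuron markers also 0, 1 and 1. Of 3 muscle markers, 1, 3 and 2 lay under H3K27me3 in D17, Kc167 and S2. The muscle marker Mef2 had H3K27ac at an end in every line, and in Kc167 it also lay under H3K27me3. The glial marker repo lay under H3K27me3 in every line, and in D17 it lay under H3K36me3 as well.

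The members are long genes, which matters for any count of peaks. Their median length was 36154.5 bp against 2161 bp for all protein-coding genes, and 44 of the 54 (81.5%) spanned at least 10 kb, against 14.2% of all genes. The shortest was dpr19, at 3738 bp, and the longest DIP-lambda, at 379081 bp. Most counts are therefore given beside the share of all 13946 genes and the share of the 1984 genes of at least 10 kb, called long genes. Another protein-coding gene overlaps 21 of the members, so a peak over a member is not always its own.

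H3K27me3 lay over a minority of the family, and the set of members differed between lines. A gene was called covered when peaks took up at least 50% of its body. This held for 7 members in D17 (13.0%), 3 in Kc167 (5.56%) and 13 in S2 (24.1%). The same rule held for 7.65%, 15.4% and 16.1% of all genes, and for 11.3%, 18.2% and 20.7% of long genes, in the same order of lines. In D17 and S2 the members' share thus lay near that of long genes, and in Kc167 it lay below both. The difference between lines was not tested.

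Weighed by length, the lines kept this order. H3K27me3 peaks took up 13.5% of the members' summed length in D17, 4.12% in Kc167 and 16.1% in S2, against 10.2%, 15.8% and 17.2% of that of all genes. Some H3K27me3 touched 19 members in D17, 8 in Kc167 and 24 in S2; over all genes the shares were 9.59%, 19.7% and 20% (2789 genes). Among long genes those shares were 21.9%, 38.2% and 38.2%, above the members' 14.8% in Kc167 and below their 35.2% in D17 and 44.4% in S2. At 0% in every line were 20 members.

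**Figure D1:**
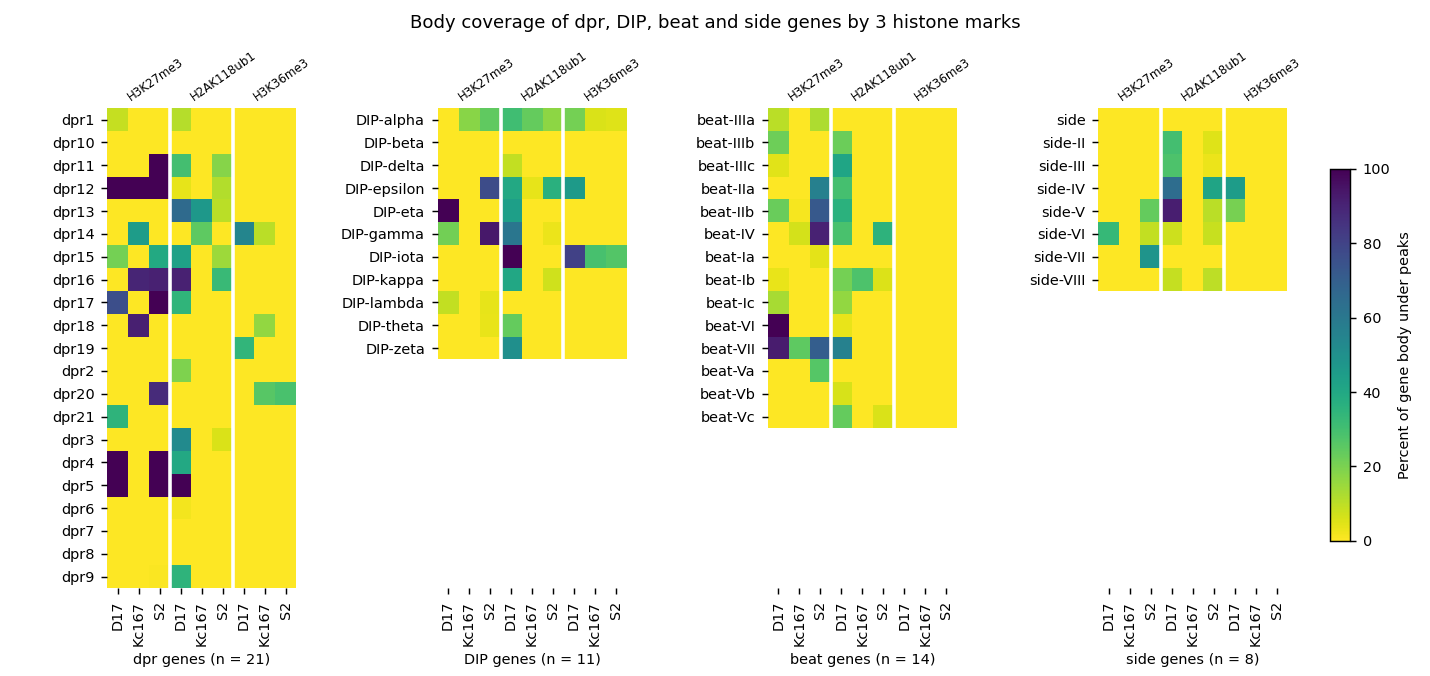
Percent of the gene body under H3K27me3, H2AK118ub1 and H3K36me3 peaks for each of the 54 members (rows) in D17, Kc167 and S2 (columns), where darker means more of the body. The H3K27me3 columns hold 7, 3 and 13 members at 50% or more, the H2AK118ub1 columns 10, 0 and 0, and the H3K36me3 columns 2, 0 and 0.

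The covered genes were spread unevenly over the families. Of the 21 dpr genes, 4 (D17), 3 (Kc167) and 7 (S2) were covered. In the same order of lines, 1, 0 and 2 of the 11 DIP genes were covered, and 2, 0 and 4 of the 14 beat genes. None of the 8 side genes was covered in any of the lines. The most covered side gene was side-VII, a short gene of 5.97 kb, with 48.3% in S2, just under the threshold. The next value below it was dpr14 in Kc167, at 44.6%, and the nearest above the threshold was beat-IIa in S2, at 56.5%. In at least 1 line 16 members were covered (29.6%), against 24.6% of all genes and 30.2% of long genes.

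**Figure D2:**
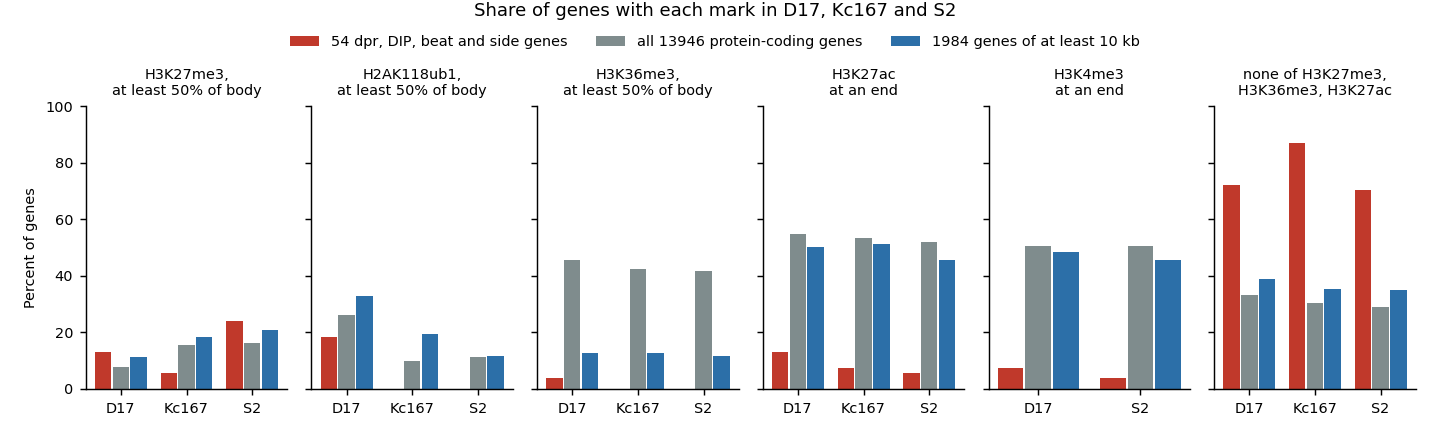
Percent of genes with each mark in D17, Kc167 and S2, for the 54 members (red), all 13946 protein-coding genes (grey) and the 1984 genes of at least 10 kb (blue). The members' bars for H3K36me3, H3K27ac and H3K4me3 are lower than the grey and blue ones. In the panel for none of H3K27me3, H3K36me3 and H3K27ac, which means that no threshold was passed, they reach 72.2%, 87.0% and 70.4%.

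The one member covered in all 3 lines with the full lists was dpr12 (1.85% of members, against 3.64% of all genes), on chromosome arm 2R. With lists of equal total length dpr12 was at 0% in S2, and with the higher-scoring 50% of peaks it was at 0% in every line. Dpr12 pairs with DIP-delta in the wiring of the mushroom body, the centre of fly olfactory memory. Its 56.1 kb lay whole (100%) under a single peak in each line, 66.2 kb wide in D17, 75.9 kb in Kc167 and 75.6 kb in S2. Counted from the low-coordinate end of dpr12, the peaks ended at 56.673 kb in D17, 57.178 kb in Kc167 and 57.202 kb in S2. The peaks of the lines therefore shared nearly the same border beside the gene.

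The neighbours dpr5 and dpr4 (3R:11499984-11505951 and 3R:11533483-11542949, 27.5 kb apart) were whole (100%) under H3K27me3 in both D17 and S2 and uncovered in Kc167. In S2 a single peak of 95.1 kb held both genes. In D17 the same stretch was split into peaks of 52.5 and 29.8 kb. The high-coordinate border lay at 57.141 kb from the low end of dpr5 in D17, at 57.359 kb in Kc167 and at 57.156 kb in S2. The Kc167 value is the edge of a lone peak of 3.75 kb beside dpr4.

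Likewise covered in D17 and S2 was dpr17, next to dpr15. Its coverage was 75.9% in D17, 0% in Kc167 and 100% in S2. A peak of 38.6 kb held it in S2, while D17 had fragments of 6.77 and 7.39 kb. Its neighbour dpr15, which lies 27.4 kb away, had 21.0% (D17), 0% (Kc167) and 39.1% (S2), so it followed the same order below the threshold. Also covered in both was beat-VII (3R:26645282-26681966), with 92.3% in D17, 24.7% in Kc167 and 70.0% in S2. Its D17 and Kc167 peaks began within the same short stretch, at 3R:26648110 and 3R:26648153.

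Covered in D17 but not S2 were DIP-eta and beat-VI, or 2 of 54 beside 2.09% of all genes. DIP-eta (2L:5601723-5617946) had 100% in D17 and 0% in Kc167 and S2. Its neighbour DIP-theta, only 8.34 kb away, was at 0% in D17. The second, beat-VI (3R:28418208-28474814), a partner of Side-II, was whole (100%) under a peak of 134 kb in D17 and at 0% in Kc167 and S2. That peak held 1 other coding gene, Or98b.

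In the other direction 8 members were covered in S2 and not in D17, beside 10.6% of all genes. They were DIP-epsilon, DIP-gamma, beat-IIa, beat-IIb, beat-IV, dpr11, dpr16 and dpr20. The dpr11 gene (3R:6529169-6593330), whose protein on R7 photoreceptors meets DIP-gamma on Dm8 neurons, was at 100% in S2 and at 0% in D17 and Kc167. Its S2 peak was 130 kb wide and ran over 13 coding genes. The dpr20 gene (3L:852720-857248) had 87.5% in S2 and none in D17 or Kc167. The beat-IV gene had 90.4% in S2, under peaks of 182 and 40.4 kb.

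Other S2 calls sat on partial coverage elsewhere. DIP-gamma (3R:28925004-28970372) had 21.2% (D17), 0% (Kc167) and 93.4% (S2). Its D17 peak of 9.63 kb began at 3R:28925755, and its S2 peaks of 21.9 and 29.6 kb began at 3R:28924087 and 3R:28948972. The beat-IIb and beat-IIa genes, whose proteins bind Side-IV, shared an S2 peak of 85.9 kb that reached into both, with 72.1% and 56.5% of their bodies covered. In D17 and Kc167 beat-IIb had 22.7% and 1.47%, and beat-IIa had none in either.

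Kc167 had its own small set. Covered in Kc167 and not in S2 was 1 member, dpr18, beside 6.93% of all genes; covered in S2 and not in Kc167 were 11, beside 7.63%. Covered in D17 and not in Kc167 were 6 (DIP-eta, beat-VI, beat-VII, dpr17, dpr4 and dpr5), beside 3.43%, and in Kc167 and not in D17 2 (dpr16 and dpr18), beside 11.2%. The dpr18 gene (X:16063738-16070304) had 91.2% in Kc167 and 0% in D17 and S2. The X chromosome held 16.4% of the length of the Kc167 H3K27me3 list, against 11.9% in D17 and 6.57% in S2. The part of this in the calls at dpr18 was not tested. The dpr16 gene (3R:5150908-5170121) had 0% (D17), 89.6% (Kc167) and 91.0% (S2). Its peaks ended at nearly the same base in the 2 lines, 3R:5168409 in Kc167 and 3R:5168393 in S2.

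**Figure D3:**
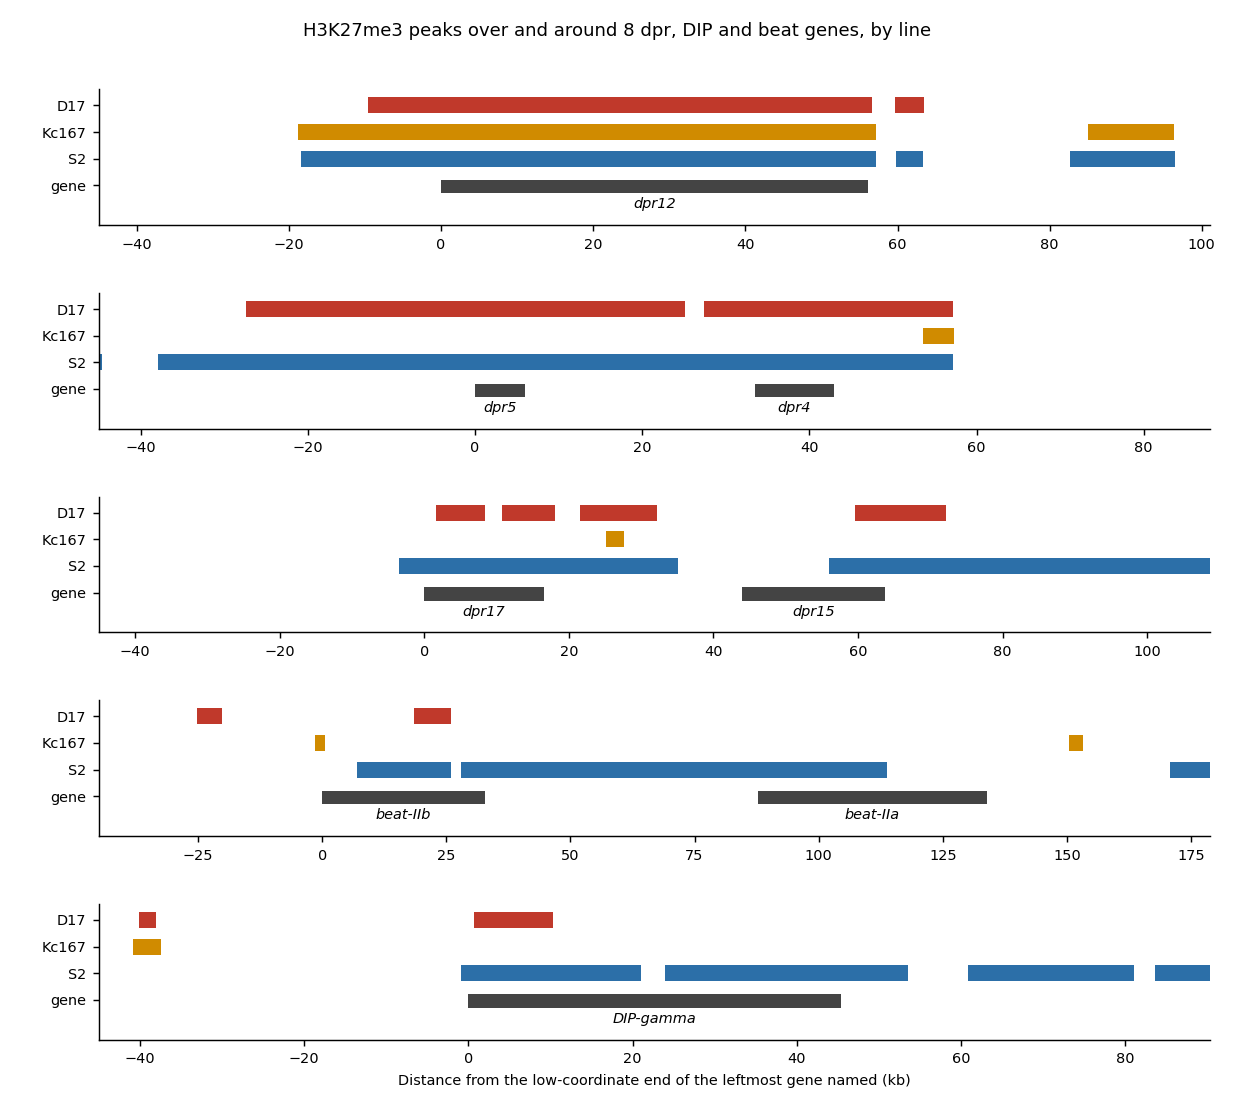
H3K27me3 peaks (coloured bars, 1 row per line in the order D17, Kc167, S2) around selected members (dark bars), with distance from the low-coordinate end of the first gene named, in kb, on the horizontal axis. The peaks over dpr12 end at 56.673, 57.178 and 57.202 kb in D17, Kc167 and S2, and those at dpr5 and dpr4 end at 57.141 kb in D17 and 57.156 kb in S2, with a Kc167 peak beside dpr4 that ends at 57.359 kb.

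The enrichment of the peaks over the covered members was read from the fold. The fold is the authors' enrichment over control for each peak, here averaged over the covered part of a gene by length, and it is read only within a list, where the lowest deposited fold was 1.5. In D17 the 7 members had 1.5 to 1.55 with a median of 1.51, against a median of 1.54 and a maximum of 2.44 for all 1067 covered genes. In S2 the 13 members had 1.5 to 1.64 with a median of 1.54, against 1.57 for all 2248 covered genes and 1.6 for the long ones. Ubx, a homeotic gene and textbook PcG target, had 1.89 in the D17 list and 2.6 in the S2 list.

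Within S2 the highest members were dpr20 (1.64), dpr11 (1.62) and beat-IV (1.6), at percentiles 68.7, 65.7 and 63.1 among covered genes. The lowest was beat-VII, at 1.5 and percentile 0.645. In D17 dpr17 was highest, at 1.55 and percentile 61.0. The Kc167 list held the one strong member. There dpr18 had a fold of 2.2, at percentile 92.4 of 2150 covered genes, beside 1.59 for dpr12 and 1.54 for dpr16 and a median of 1.59 for all.

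The number of covered members depended on how much of each list was kept. With the higher-scoring 50% of peaks 0 members were covered in D17, 1 in Kc167 (dpr18) and 3 in S2 (beat-IV, dpr11 and dpr20), beside 3.57%, 8.71% and 8.96% of all genes. The full lists took up 17.6 Mb in D17, 23.3 Mb in Kc167 and 26.2 Mb in S2. When the lists were trimmed by score to equal total length, 7 members were covered in D17, 2 in Kc167 (dpr12 and dpr18) and 4 in S2 (beat-IV, dpr11, dpr16 and dpr20), beside 7.65%, 11.1% and 10.3%. The order of D17 and S2 was then turned round, so which of these lines covers more members is not settled by the lists.

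PcG protein peaks over the body of the covered members, or within 500 bp of it, were set beside those of all covered genes. In D17 a Pc peak lay on 0 of 7, against 30.6% of all covered genes and 52.9% of the long ones. Ph, E(z), Spps and Pcl lay on 0 of 7 as well, against 21.7%, 16.4%, 23.4% and 26.4% of all covered genes. Psc and Scm lay on 2 of the 7 (28.6%), against 26.9% and 33.1%, and Pho and Sfmbt on 1 (14.3%), against 21.8% and 16.8%. Among covered long genes in D17 the shares of these 8 proteins ran between 41.3% for E(z) and 72.0% for Scm. With none of the 9 PcG antibodies were dpr5, beat-VI and beat-VII. In S2 the members' shares lay above those of all covered genes for Pc (3 of 13, 23.1% against 16.1%), Ph (6, 46.2% against 20%, which is 449 genes), Pho (5, 38.5% against 16.5%), Psc (4, 30.8% against 21.5%), E(z) (3, 23.1% against 16.5%) and Sfmbt (3, 23.1% against 15.6%). They lay below them for Spps (2, 15.4% against 24.7%) and Scm (2, 15.4% against 16.4%). For these 8 proteins the covered long genes of S2 had higher shares than the members, at 38.5% for Pc, 57.8% for Ph, 49.8% for Pho, 54.1% for Psc, 48.8% for E(z), 47.6% for Sfmbt, 63.4% for Spps and 44.4% for Scm. In Kc167 dpr18 had all 5 PcG antibodies used there, and dpr12 and dpr16 had none. The difference from the long genes was not tested.

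PcG protein peaks were also counted by H3K27me3 peak. D17 and S2 had 9 PcG antibodies and Kc167 had 5, so its count is not like theirs. Of the 36 D17 peaks that touched a member, 25 had no PcG protein peak anywhere under them, as did 5 of 9 in Kc167 and 3 of 32 in S2. Over each whole list the share of such peaks was 44.8%, 50.9% and 14.0%. DIP-lambda held 11 of the D17 peaks and dpr21 5, most of them with no PcG protein peak, so these genes weigh on the D17 count. The S2 list of Pcl holds 15159 peaks. With Pcl left out, 11 of the 32 S2 peaks had none, and the like share of the whole S2 list was not computed. Pcl lay on all 13 covered members in S2, against 73.2% of all covered genes and 98.5% of the long ones. Median peak widths over members were 6.4 kb in D17, 6.25 kb in Kc167 and 11.6 kb in S2, against 7.42, 7.42 and 8.99 kb over each whole list.

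H2AK118ub1, the mark of PRC1, was found on members mainly in D17. It covered at least 50% of 10 members in D17 and of 0 in Kc167 and S2, beside 26.3%, 9.87% and 11.3% of all genes and 32.8%, 19.5% and 11.8% of long genes. Some of the mark touched 39 members in D17, 5 in Kc167 and 19 in S2, beside 35.7%, 14.1% and 20.2% of all genes and 69.8%, 37.9% and 50.7% of long genes. The lists differ in size, with 39.6 Mb in D17, 16.5 Mb in Kc167 and 15.5 Mb in S2, and the part of this in the difference was not tested. In D17 the median member had 22.9% of its body under the mark, against 0% for all genes and 27.2% for long ones. Outside D17 the highest values were 46.5% for dpr13 in Kc167 and 41.5% for side-IV in S2.

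Most D17 members covered by this mark had 0% H3K27me3, and so had 2839 of all 3661 genes it covered in D17. The 10 were DIP-iota (100%), dpr5 (100%), side-V (91.6%), dpr16 (90.9%), dpr13 (65.6%), side-IV (64.4%), DIP-gamma (60.8%), beat-VII (56.0%), dpr3 (52.2%) and DIP-zeta (50.0%). Of these, dpr5 and beat-VII were also covered by H3K27me3. The other members covered by H3K27me3 in D17 each had some H2AK118ub1, between 3.24% (beat-VI) and 43.4% (DIP-eta). The mark stood with 0% H3K27me3 on 7 (DIP-iota, DIP-zeta, dpr13, dpr16, dpr3, side-IV and side-V), or 13.0% of members beside 20.4% of all genes and 22.3% of long genes. For dpr16, the D17 H2AK118ub1 peak ran from 3R:5150754 to 3R:5168369. That is nearly the stretch of the Kc167 H3K27me3 peak, 3R:5151200-5168409, so the same gene carried one PcG mark in D17 and the other in Kc167.

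Marks of transcription were rare. H3K36me3 covered at least 50% of 2 members in D17, 0 in Kc167 and 0 in S2, beside 45.7%, 42.4% and 41.7% of all genes and 12.7%, 12.7% and 11.7% of long genes. The 2 were DIP-iota (80.8%), in a peak that also ran over CG11050, and dpr14 (54.4%), in a peak that also ran over spidey, snz, Ykt6 and hdm. Any H3K36me3 lay on 7 members in D17, 5 in Kc167 and 3 in S2, beside 57.5%, 52.8% and 52.4% of all genes and 60%, 51.2% and 51.1% of long genes. The members whose H3K36me3 peaks all lay clear of other coding genes were side-IV (44.7%) and side-V (20.5%), both in D17, while 2 of the 3 peaks over DIP-epsilon (45.4%) ran over neighbours. In Kc167 and S2 every such peak also ran over a neighbouring coding gene.

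H3K36me2 covered DIP-epsilon (57.0%) and side-IV (59.4%) in D17, and dpr20 (100%), dpr11 (83.1%) and side-IV (59.0%) in S2, beside 15.0% and 43.8% of all genes and 12.8% and 17.7% of long genes. Side-IV, a ligand of Beat-IIa and Beat-IIb, was thus the member with this mark over at least 50% of its body in both lines measured. Smaller stretches lay in both lines on dpr20 (23.1% in D17), DIP-alpha (42.9% in D17 and 8.47% in S2) and DIP-gamma (7.76% in D17 and 5.27% in S2). In S2 dpr11 and dpr20 carried H3K27me3 and H3K36me2 each over at least 50% of the body. These are 2 of 54 members, or 3.7%, beside 1.71% of all genes and 0.504% of long genes.

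H3K27ac within 500 bp of a gene end was seen at 7 members in D17, 4 in Kc167 and 3 in S2, beside 54.8%, 53.5% and 52.1% of all genes and 50.2%, 51.1% and 45.5% of long genes. Since the gene table gives no strand, both ends were searched. The D17 members were DIP-alpha, DIP-epsilon, dpr14, dpr16, dpr19, side-III and side-V. Most of these peaks lay at the end of a neighbour as well. At dpr19, with peaks in every line, CG33303 and gny end close by. The peaks beside side-III also lay at CG2017, and those beside dpr14 at spidey. With no end of another gene within 500 bp there remained 3 members in D17 and 0 in Kc167 and S2. They were DIP-epsilon with a fold of 2.54, side-V with 2.13 and dpr16 with 1.75. The dpr16 peak (3R:5170592-5171217) lay outside the gene, which ends at 3R:5170121. Another coding gene, cno, overlaps dpr16, so the peak may not be its own.

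H3K4me3 was rarer still. It stood at an end of 4 members in D17 (DIP-epsilon, dpr19, side-III and side-V) and 2 in S2 (dpr19 and side-III), beside 50.7% and 50.4% of all genes and 48.5% and 45.7% of long genes. Away from other gene ends, only DIP-epsilon and side-V in D17 kept a peak. Their folds of 1.54 and 1.70 stood at percentiles 0.0981 and 0.981 of the D17 H3K4me3 list, among its weakest peaks. At dpr19, shared with its neighbours, the D17 folds were 13.9 and 13.8.

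H3K4me2 was the most frequent of the active marks on members in D17. It stood at an end of 10 members in D17 and 2 in S2, beside 56.5% and 49.6% of all genes and 49.1% and 40.9% of long genes. Away from other gene ends it stood at 7 in D17 (DIP-epsilon, beat-VII, dpr12, dpr13, dpr14, side and side-V) and 0 in S2. Over the body or within 500 bp it lay on 36 members in D17 (66.7%) and 8 in S2 (14.8%), beside 65.6% and 55.1% of all genes and 85.0% and 62.3% of long genes. Peaks centred in the bodies numbered 75 in D17 and 7 in S2, or 29.7 and 2.78 per Mb, against 143 and 91.9 per Mb over all genes. Over long genes the densities were 88.4 and 42.7 per Mb. The D17 list is the longer one, with 14139 peaks against 8797, and its part in the difference was not tested.

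H3K27ac in gene bodies followed the same order. A peak lay over the body or beside it in 14 members in D17, 7 in Kc167 and 5 in S2, beside 58.7%, 55.5% and 55.4% of all genes and 67.2%, 61.3% and 60.6% of long genes. Counted by peak centre, the bodies held 31 peaks in D17, 5 in Kc167 and 2 in S2, or 12.3, 1.98 and 0.793 per Mb, against 123, 64.3 and 105 per Mb over all genes. Over long genes the densities were 76.3, 33.1 and 57.2 per Mb.

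The 3 genes with an H3K27ac end peak away from other gene ends are given line by line. DIP-epsilon (2L:6377771-6411326) in D17 had H3K27ac and H3K4me3 at its high-coordinate end, 45.4% of its body under H3K36me3 and 0% under H3K27me3. In Kc167 its H3K27ac peak was shared with the end of CG13982 and H3K27me3 was at 0%. In S2 it had neither end peak and 76.7% under H3K27me3. That share fell to 12.6% with the higher-scoring 50% of peaks and with lists of equal total length. H2AK118ub1 lay over 39.8% of DIP-epsilon in D17, 3.81% in Kc167 and 36.4% in S2. The side-V gene in D17 had both end marks, 91.6% under H2AK118ub1 and 8 of 9 PcG proteins, and in S2 it had 23.8% under H3K27me3. The dpr16 gene in D17 had 90.9% under H2AK118ub1 and the H3K27ac peak outside its end, which may not be its own. In Kc167 and S2 dpr16 had no H3K27ac at an end and 89.6% and 91.0% under H3K27me3. With the higher-scoring 50% of peaks dpr16 was at 0% in both. With lists of equal total length it was at 0% in Kc167 and 91.0% in S2.

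Most members passed none of these thresholds. Without H3K27me3 or H3K36me3 over 50% of the body and without H3K27ac at an end were 39 members in D17 (72.2%), 47 in Kc167 (87.0%) and 38 in S2 (70.4%). The shares of all genes were 33.3%, 30.3% and 29.1%, and those of long genes 38.9%, 35.4% and 35.1%. The share of members in this state was thus above that of long genes in each of the lines, a difference that was not tested. Of these members 10 in D17, 41 in Kc167 and 19 in S2 had no H3K27me3 and no H2AK118ub1 over any part of the body. With no H3K27me3, H2AK118ub1 or H3K36me3 at all and no H3K27ac at an end in any of the lines were dpr7, dpr8, dpr10, DIP-beta and side. At dpr7 the numbering of the H3K27me3 peaks skips in D17 and Kc167, so a peak may have been taken out there.

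The share of members with a peak of at least 1 PcG protein lay near or above that of all genes and below that of long genes. Any of Pc, Ph, Psc, Pho and Spps lay on 28 members in D17 (51.9%), 31 in Kc167 (57.4%) and 34 in S2 (63.0%), beside 35.9%, 61.9% and 45.2% of all genes and 73.9%, 86.4% and 78.4% of long genes. Pc lay on 10 members in D17, 15 in Kc167 and 10 in S2, beside 7.38%, 35.5% and 8.68%. Ph lay on 8, 13 and 21, beside 17.6%, 32.5% and 20.7%. Long genes had Pc at 21.1%, 62.7% and 24.4%, and Ph at 51.5%, 68.7% and 56.6%.

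The DNA-binding factors and the other PRC1 subunit gave like counts. Psc lay on 13 members in D17, 23 in Kc167 and 17 in S2, beside 12.5%, 40.0% and 28.5% of all genes. Pho lay on 11, 16 and 15, beside 16.4%, 42.1% and 21.0%, and Spps on 15, 22 and 13, beside 21.3%, 57.4% and 30.0%. The remaining PcG proteins were measured in D17 and S2 only. E(z) lay on 6 members in D17 and 10 in S2, beside 11.6% and 14.4%, Pcl on 15 and 46, beside 20.5% and 45.4%, Scm on 17 and 7, beside 8.91% and 5.12%, and Sfmbt on 6 and 12, beside 12.5% and 28.0%. Long genes had Psc at 33.9%, 67.4% and 52.4%, Pho at 39.4%, 65.8% and 42.6% and Spps at 57.5%, 81.5% and 65.0% in D17, Kc167 and S2. In D17 and S2 they had E(z) at 38.8% and 42.1%, Pcl at 50.5% and 78.2%, Scm at 30.8% and 17.7% and Sfmbt at 34.1% and 55.5%. The members' shares were lower than these except for Scm in D17, at 31.5%, and Pcl in S2, at 85.2%.

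Per length of gene body the members held fewer peaks of nearly every antibody than all genes. E(z) in D17 had 1.19 peaks per Mb of the members' bodies against 16.3 per Mb over all genes, a ratio of 0.0729, and Ph in D17 had 1.59 against 25.8. The Pc lists gave 2.38 (D17), 3.17 (Kc167) and 3.17 (S2), against 13.0, 46.9 and 12.7. Nearest to equal density among the lower ones were Pcl in S2, with 114 against 119, TrxC in S2, with 13.9 against 15.6, and H2AK118ub1 in D17, with 27.8 against 33.6. H3K27me3 in D17 was the list in which members exceeded all genes, with 12.7 peaks per Mb against 6.21. In Kc167 it had 3.17 against 13.5 and in S2 8.72 against 11.9. Of the 32 D17 peaks centred in members, DIP-lambda held 11 and dpr21 5. By summed length the D17 peaks took up 13.5% of the members and 12.2% of long genes. At the other end H3K4me3 in S2 had 0 peaks centred in a member, against 47.9 per Mb.

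**Figure D4:**
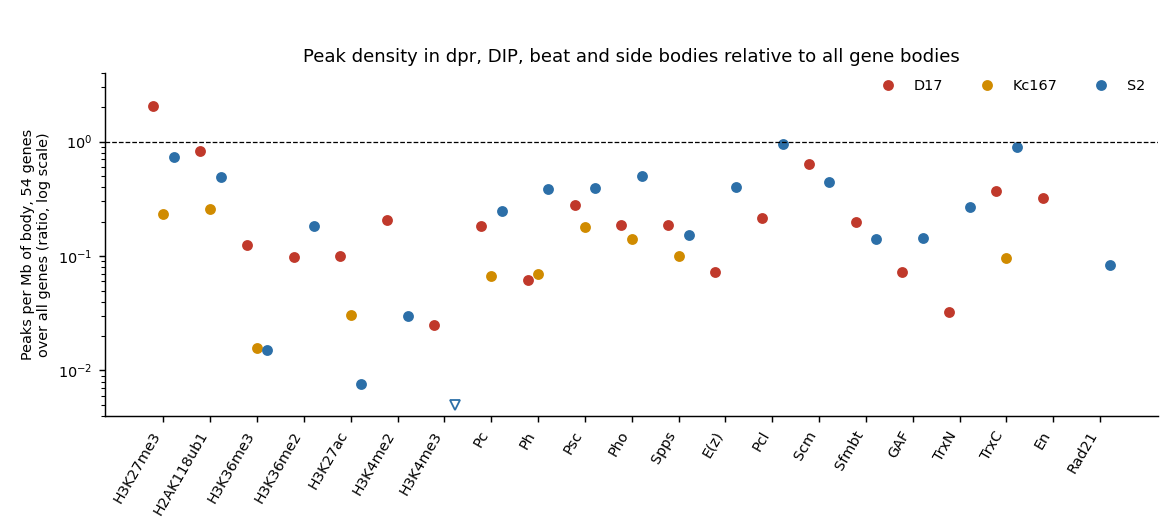
Ratio of peaks per Mb of gene body, members over all protein-coding genes, for each antibody in D17, Kc167 and S2 on a log axis, with a line at equal density. The D17 point for H3K27me3 (12.7 against 6.21 per Mb) lies above the line, and E(z) in D17 lies at 0.0729. Ratios to long genes alone are not drawn.

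A PcG site was a place where peaks of Pc, Psc and Pho in a line all met a Ph peak. Such sites lay on 0 members in D17, 5 in Kc167 and 3 in S2, beside 1.85%, 17% (2373 genes) and 2.93% of all genes and 8.17%, 39.1% and 11% of long genes. In Kc167 they were beat-Ib, dpr14, dpr18, dpr2 and side-III, and in S2 DIP-lambda, dpr11 and dpr2.

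Among the members with the most PcG antibodies in each line was DIP-alpha (X:3507245-3571649), the receptor of Dpr6 and Dpr10 on motor neurons and medulla neurons. It had 6 of 9 PcG antibodies in D17, 5 of 5 in Kc167 and 9 of 9 in S2. A place about 25 kb inside the gene had Pc in every line. There Pc had a peak at X:3545726-3546233 in D17 with a fold of 2.86, at X:3545669-3546381 in Kc167 with 6.27 and at X:3545651-3546265 in S2 with 5.55. GAF stood there with 36.5 in D17 and 29.4 in S2. Kc167 had further Pc peaks on DIP-alpha, at X:3554918-3555950 and X:3569995-3570638. The share of its body under H3K27me3 was 0% in D17, 17.9% in Kc167 and 24.4% in S2.

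Other members had 1 marked place. In D17 beat-IIIc had 6 of 9 PcG antibodies, most of them at 1 stretch 17.4 kb from its high-coordinate end. There Ph (2L:17242962-17243800) had a fold of 7.83, Spps 9.03 and En, the homeodomain protein Engrailed, 14.4, at percentile 98.4 of the En list. A D17 H3K27ac peak (2L:17241864-17243302) overlapped this Ph peak, with a fold of 3.86 at percentile 80.5 of its list. In Kc167 and S2 the same stretch of beat-IIIc had Ph with 3.8 and 2.03. In D17 side-V had 8 of 9, led at its high-coordinate end by GAF with 26.9, Spps with 8.3 and Pc with 4.87.

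The short gene dpr18 had places of high fold in Kc167. Psc had a fold of 20.7 beside its low-coordinate end and Pho 13.3 at X:16067703-16068795, inside the gene. In S2 Pho stood at the same place of dpr18 with 4.35, while dpr18 had H3K27me3 in Kc167 only. Near the end of dpr2 Pho reached 10.4 in D17, 34.7 in Kc167 and 36.3 in S2, at percentiles 94.3, 98.6 and 97.8 of each list, on a gene with 0% H3K27me3 in every line. The peaks at dpr14 in Kc167, with 5 of 5 antibodies, lay beside its end toward spidey.

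In S2 dpr11 and DIP-lambda had 8 of 9 PcG antibodies, at low folds. Inside dpr11, 20.3 kb from its low-coordinate end, Pc had 2.04, Ph 1.68 and E(z) 2.23 in S2, within the 130 kb H3K27me3 peak. At the same place in D17 dpr11 had Scm at 1.76 and Pho at 1.53 and no H3K27me3. H3K27ac stood there in both lines, at 1.75 in D17 and 2.03 in S2, and D17 also had H3K4me2 at 2.4 and En at 1.66. An H2AK118ub1 peak lay over this place in both lines, at 3R:6543121-6551026 in D17 and 3R:6543167-6551018 in S2. DIP-lambda is the longest member, and its S2 site held Ph at 1.66 and Pc at 1.57.

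**Figure D5:**
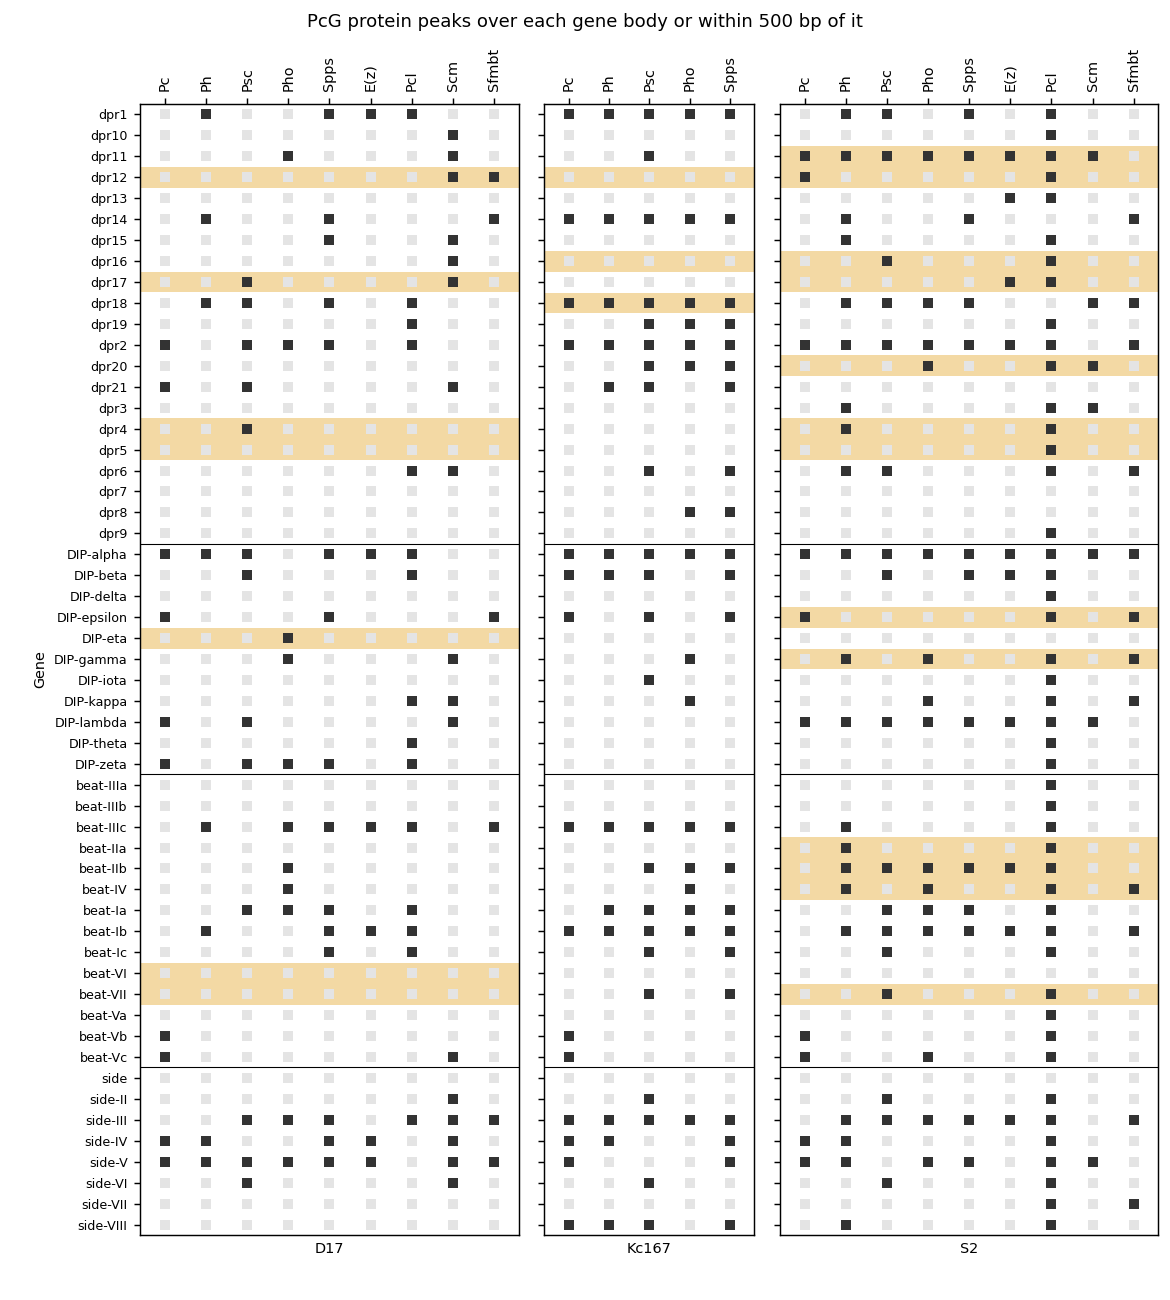
PcG antibodies with a peak over the body or within 500 bp of it (dark squares; light squares have none) for each member (rows) in D17, Kc167 and S2, with members covered by H3K27me3 in that line shaded orange. DIP-alpha has 6 of 9, 5 of 5 and 9 of 9 PcG antibodies, and the Pcl column of S2 is filled for 46 of 54 members.

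Trithorax group proteins, which oppose the PcG, were counted in the same way. GAF, a factor that binds GAGA repeats, lay on 16 members in D17 and 12 in S2, beside 22.4% and 24.0% of all genes and 61.1% and 63.2% of long genes. The antibody labelled TrxN lay on 5 and 13, beside 31.5% and 44.0% of all genes and 39.3% and 54.4% of long genes. The antibody labelled TrxC lay on 11 in D17, 18 in Kc167 and 14 in S2, beside 34.8%, 43.8% and 18.3% of all genes and 55.2%, 67.4% and 40.8% of long genes. Engrailed lay on 8 members in D17, beside 7.83% of all genes and 28.9% of long genes. Rad21, a cohesin subunit, lay on 8 in S2, beside 45.3% of all genes and 61.9% of long genes.

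The H3K27me3 calls of known binding partners were set side by side. Among 11 pairs named from the literature of these families, both genes were covered by H3K27me3 in 0 pairs in D17, 0 in Kc167 and 1 in S2. One gene of the pair was covered in 2, 1 and 3 pairs, and neither in 9, 10 and 7. Of all members 13.0%, 5.56% and 24.1% were covered, so most pairs of any members would be uncovered too. Some genes stand in more than 1 pair. The counts therefore show nothing particular to partners, and they were not tested. The pair covered together was DIP-gamma (93.4%) with dpr11 (100%) in S2. With the higher-scoring 50% of peaks, and with lists of equal total length, DIP-gamma was at 0% in S2, and no pair was covered together.

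In other pairs only one partner was covered. DIP-delta had 0% in every line while its partner dpr12 had 100% in every line with the full lists. In D17 side-II had 0% and beat-VI 100%. In S2 side-IV had 0%, beat-IIa 56.5% and beat-IIb 72.1%. With the higher-scoring 50% of peaks beat-VI in D17 and beat-IIa and beat-IIb in S2 were at 0%. With lists of equal total length beat-IIa and beat-IIb were again at 0% in S2, and beat-VI stayed at 100% in D17. In the founding pair of muscle guidance, side had 0% in every line, and beat-Ia had 0% in D17 and Kc167 and 4.1% in S2. DIP-alpha with dpr6 and dpr10 was uncovered, and so were side-VI (32.9%, 0% and 9.09% in D17, Kc167 and S2) and its partners beat-Va, beat-Vb and beat-Vc.

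Other gene lists were counted for comparison. The first held 47 other adhesion and guidance genes, such as Dscam1, Fas2 and robo1, but also shg, kirre and Tig. It was not limited to genes specific to neurons. Of these 47, 20 in D17, 18 in Kc167 and 14 in S2 had H3K27ac at an end, and 6, 9 and 9 were covered by H3K27me3. None of the thresholds for H3K27me3, H3K36me3 and H3K27ac was passed by 22, 26 and 25 of them. That list has a median length of 37.8 kb, close to that of the members. Of 17 genes of neuronal function, such as elav and brp, 3, 4 and 5 had H3K27ac at an end and 2 in each line were covered. No threshold was passed by 12, 12 and 10 of them. Among the members that number was 39, 47 and 38 of 54. The lists were not tested against each other.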

How the data were processed

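Per the submitters' processing notes, the authors used Trim Galore 0.6.4, Bowtie2 2.3.5.1, SAMtools 1.13, bedtools 2.29.2 and MACS2 2.2.6 with BDGP6 (dm6). How replicates and input entered each list is not stated. The deposited peaks carry the authors' score, their fold (a ratio) and a −log10 q (negative log10 of the adjusted p-value), and numbers skipped in the peak names leave stretches that may have held a peak. Scores served only to trim lists and folds to describe peaks within a list.

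Gene bodies came from the Release 6 plus ISO1 MT table, without strand. Overlap meant at least 1 bp, and peaks per Mb were counted by midpoint. Coverage and hits equalled those of bedtools 2.31.1 in 50 of 50 lists, and tests on made-up peaks gave back 400 of 400 planted values. Named were members covered in every line, differing between lines, with H3K36me3 or H3K4me3, with the most PcG antibodies per line, or in partner pairs; others named for single values were chosen after their values were seen. Members and lists were chosen with earlier results of these data known. Computations used Python 3.11.15, NumPy 2.4.6, pandas 2.3.3 and matplotlib 3.10.9. Sequencing reads, expression and accessibility data were not used here.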

Additional observations from a re-analysis of the deposited data

How the results depend on the processing

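The lists hold no values per replicate, so depth limits are unknown and no replicate could be left out. No paired analysis was possible because the shared replicate numbers have no values in the lists. The search for promoter motifs and the use of the annotated start alone were not run, since the gene table used gives no strand and no sequence was used. In the order D17, Kc167 and S2, members covered by H3K27me3 numbered 7, 3 and 13. They numbered 0, 1 and 3 with the higher-scoring 50% of peaks, and 4 in S2 at equal total length. At equal length, 7 were covered in D17 and not S2 (2 in the full lists), 4 in S2 and not D17 (8), 2 in Kc167 and not S2 (1), 4 in S2 and not Kc167 (11) and 1 in Kc167 and not D17 (2). Covered by H2AK118ub1 were 10, 0 and 0, then 25, 2 and 4 at 25% of the body, and in D17 4 at 80% and 3 with the higher-scoring 50%. Covered by H3K36me3 were 2, 0 and 0, then 5, 2 and 2 at 25%, and in D17 1 at 80% and 1 with the higher-scoring 50%. H3K27ac at an end gave 7, 4 and 3 members, then 0, 1 and 1 over the end itself, 11, 8 and 6 within 2 kb, and 3, 0 and 0 with no other gene end near, an alternative chosen after seeing the data. H3K4me3 in D17 and S2 gave 4 and 2, then 0 and 0 over the end, 9 and 7 within 2 kb, 1 and 1 with the higher-scoring 50%, and 2 and 0 with no other gene end near. Any of 5 PcG proteins lay on 28, 31 and 34, but on 16 in D17 and 17 in S2 at the ends only, and on 19 in S2 with the higher-scoring 50%. PcG sites lay on 0, 5 and 3 members, then on 2 in D17 and 11 in Kc167 with any 3 of the 4 proteins, and on 1 in Kc167 and 1 in S2 with equal lists. The cause of each change was not tested. Of the 69 counts for single PcG proteins under alternatives, 34 stayed within 1.5 times, 35 were lower and 0 were higher.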

Other observations

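DIP-lambda, the longest member, had H3K27me3 in fragments that lay in the same places in D17 and S2. Of its 11 D17 peaks, 5 were overlapped by an S2 peak, and each of its 5 S2 peaks was overlapped by a D17 peak. None is listed there in Kc167. The dpr21 gene, on the same chromosome arm, had 35.1% of its body under H3K27me3 in D17 in 5 peaks and none that overlapped a peak in Kc167 or S2. The numbering of the H3K27me3 peaks skips at DIP-lambda and dpr21 in Kc167 and at dpr21 in S2, so a peak may have been taken out there and these absences show no difference between lines.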
